A study of Mus musculus with 7 samples.

Results

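Trp53, Nf1, Cdkn2a, Cdkn2b and Rb1 are tumor suppressor genes, and their RNA levels are described here in 7 endpoint brain tumors of a mouse model of glioblastoma. They were chosen by symbol, and all 5 were found among the 19257 genes of the table of normalized counts. The tumors were started by in utero electroporation (IUE), in which plasmids are injected into the ventricle of the embryonic brain and driven by current into the progenitor cells that line it. In the 3xCR group (3 libraries, replicates 2 to 4) a single construct carried Cas9 and the CRISPR guides against Trp53, Nf1 and a further tumor suppressor gene, and the labels call this genotype control. In the GPC6 group (4 libraries, replicates 1 to 4) the same guides were used and a piggyBac transposon added overexpression of GPC6, a glypican that promotes the formation of excitatory synapses. Both groups therefore carried every guide, and no brain or tumor without guides is among the 7 libraries. The model was made on CD-1 and C57BL/6 backgrounds. The strain, the sex and the age at collection are not given for single libraries. The sources used here do not give the promoter that drove GPC6 or the species of its sequence. The study asked how GPC6 changes the molecular state of the tumor brain, and the members are compared here between the groups and with each other across the libraries.

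The 5 genes stand in 2 linked circuits that restrain cell division. Trp53 encodes p53, a transcription factor that halts the cell cycle or triggers cell death after damage or oncogene signals. Nf1 encodes neurofibromin, which switches off RAS by speeding the hydrolysis of its GTP. Cdkn2a encodes from separate first exons both p16Ink4a, which inhibits the cyclin D kinases CDK4 and CDK6, and p19Arf, which holds back MDM2 and so stabilizes p53. Cdkn2b encodes p15Ink4b, a close relative of p16Ink4a, and Rb1 encodes the retinoblastoma protein, which the cyclin D kinases phosphorylate and which otherwise binds E2F factors. The Cdkn2a and Cdkn2b genes lie side by side.

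The 2 targeted sites among the members are shown because they fix what a read count can and cannot tell about the guides. They were located in GENCODE transcripts of the build GRCm38 and are written 5′ to 3′ in lower case, with the PAM (the short motif beside the target that Cas9 requires) in capitals.
Trp53 site: cctcgagctccctctgagccAGG
Nf1 site: gcagatgagccgccacatcgaGGG
The Trp53 target of 20 bases lies at chr11:69586926-69586945 on the plus strand, in exon 2 of the 11 exons of the Trp53 transcript used, the first of its 10 coding exons. The Nf1 target of 21 bases lies at chr11:79547104-79547124 and reads on the minus strand, opposite to the gene, in exon 42 of the 58 exons of the Nf1 transcript used. Both sites are in protein-coding sequence of genes on chromosome 11, where Trp53 spans 69580359 to 69591873 and Nf1 spans 79339693 to 79581612. A gene-level count pools edited and unedited transcripts of all cells in the tissue, so that the counts below do not measure editing.

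The libraries held 7197692 to 18879762 reads on genes, with a median of 10566182. A normalized count is the number of reads divided by a size factor for the library, and it is not corrected for gene length. Values of single libraries are listed by replicate number, 2 to 4 for 3xCR and 1 to 4 for GPC6. Gpc6 was checked first as the gene by which the groups differ by design. It had 217, 226 and 126 normalized counts in the 3xCR libraries, against 675, 263, 3434 and 5084 in the GPC6 libraries. These counts are of the mouse gene, so that they need not measure the level of the construct. The groups did not overlap, but GPC6 replicate 2 lay close to the 3xCR libraries. The difference was 2.85 on the log2 scale (SE 0.98) with an adjusted p of 0.730 in limma, and the two-sided exact permutation test gave p = 0.0571, the smallest value that 3 libraries against 4 allow. Markers of neurons, oligodendrocytes, astrocytes, microglia, endothelium and dividing cells were detected in every library with none at 0. No list was of markers particular to tumor cells, so that the tumor content of a library was not measured. The labels name the tissue brain and the cell type neural. Nothing in the labels says how the animals of a group relate to each other, so that p-values measure the spread between these 7 libraries.

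None of the 5 members passed the test between GPC6 and 3xCR tumors, and the groups overlapped for each of them. At an adjusted p under 0.05, limma called 0 of the 5 members, beside 0% of the 14782 genes tested. At an unadjusted p under 0.05 it called 0 of the 5 members, beside 4.66% of all genes. Over all genes the groups did not overlap for 6.32% of all genes, and for 3.52% with the lower values in GPC6. The fitted level was higher in GPC6 for 2 members, Trp53 and Nf1, and lower for 3, and the median log2 difference of the members was -0.017, beside -0.019 over all genes tested. The Cdkn2 genes had the largest differences and also the widest intervals.

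**Figure D1:**
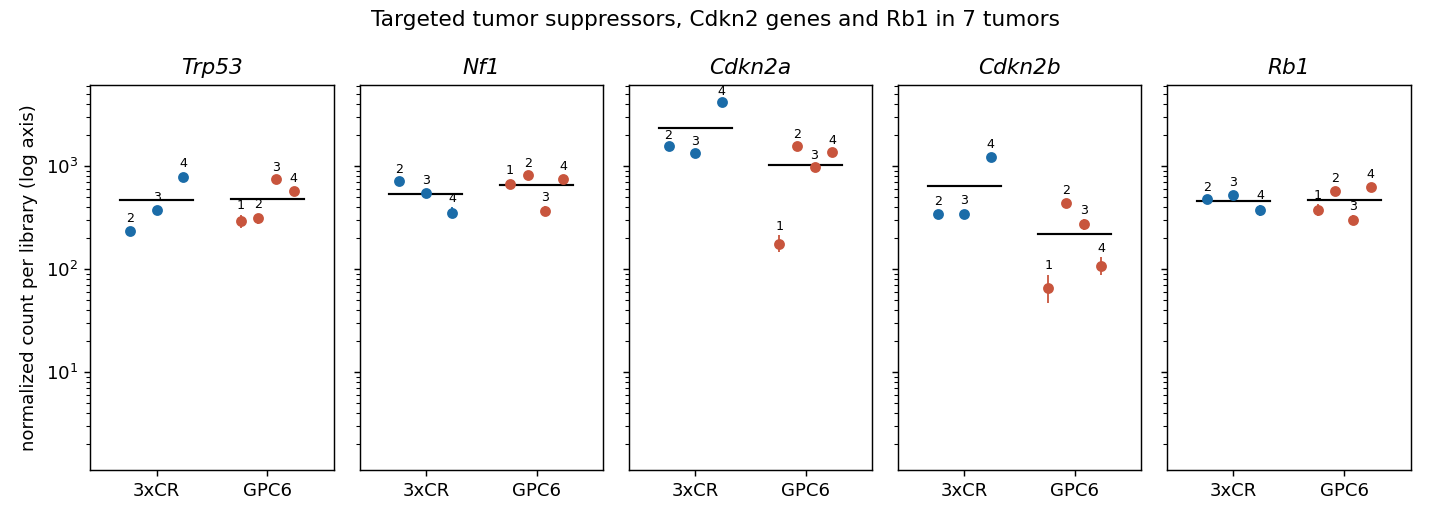
Normalized counts of Trp53, Nf1, Cdkn2a, Cdkn2b and Rb1 (log axis) in the 3 libraries of 3xCR tumors (blue) and the 4 of GPC6 tumors (red); numbers are replicate numbers, bars across each group are means, and vertical lines are 95% Poisson intervals of the read count. Cdkn2a and Cdkn2b are highest in 3xCR replicate 4 (4134 and 1235) and lowest in GPC6 replicate 1 (176 and 64.9), and for each of the 5 genes the groups overlap.

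The targeted gene Trp53 had 231, 370 and 789 normalized counts in the 3xCR libraries, against 291, 309, 739 and 568 in the GPC6 libraries. Low and high libraries occurred in both groups, with 3xCR replicate 4 and GPC6 replicate 3 at the top. The means were 463 ± 290 (SD, n = 3) and 477 ± 216 (SD, n = 4). The log2 difference, GPC6 minus 3xCR, was 0.11 (SE 0.49, 95% interval -1.03 to 1.26), with an adjusted p of 0.955 in limma and p = 0.971 in the two-sided exact permutation test. Its sign turned when single libraries were left out, from -0.29 without 3xCR replicate 2 to 0.59 without 3xCR replicate 4. The highest library exceeded the lowest by 3.41-fold, and transcript of the targeted gene was present in every tumor.

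Nf1, the other targeted member, had 711, 543 and 352 normalized counts in the 3xCR libraries, against 666, 815, 368 and 755 in the GPC6 libraries. Its lowest libraries were 3xCR replicate 4 and GPC6 replicate 3, the libraries that were highest in Trp53. The means were 535 ± 179 (SD, n = 3) and 651 ± 198 (SD, n = 4), and the log2 difference was 0.28 (SE 0.36, 95% interval -0.55 to 1.10; adjusted p = 0.826, limma). Without 3xCR replicate 4 it was 0.0044, and without GPC6 replicate 3 it was 0.53. With weights per library, which give less weight to libraries that deviate from the fit, it was -0.34. Introns of Nf1 hold other genes on the opposite strand. One of them, Omg, which encodes oligodendrocyte myelin glycoprotein, had 312 to 2068 normalized counts and a Pearson r of 0.76 with Nf1 over the 7 libraries. Another, Evi2a, had 143 to 506 normalized counts and an r of -0.17, and the antisense gene AU040972 had 2.76 to 19.5. None of them shares an exon base with Nf1, and the strand setting of the counting is not given in the sources used here.

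Cdkn2a was the most variable member together with its neighbor. It had 1571, 1341 and 4134 normalized counts in the 3xCR libraries, against 176, 1571, 972 and 1379 in the GPC6 libraries. 3xCR replicate 4 stood above and GPC6 replicate 1 far below the other libraries, which lay between 972 and 1571. The means were 2349 ± 1550 (SD, n = 3) and 1024 ± 618 (SD, n = 4). On the log2 scale the difference was -1.40 (SE 0.78), a 2.63-fold lower level in GPC6 tumors with an interval of 0.108-fold to 1.33-fold of the 3xCR level (adjusted p = 0.730, limma). The two-sided exact permutation test gave p = 0.229. Single libraries set its size, as the fold was 1.61 without GPC6 replicate 1 and 1.86 without 3xCR replicate 4. The gene is annotated on the minus strand of chromosome 4 from 89274471 to 89294653 with 2 protein-coding transcripts, whose reads the table does not separate, so that p16Ink4a and p19Arf cannot be told apart.

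Cdkn2b had 344, 340 and 1235 normalized counts in the 3xCR libraries, against 64.9, 436, 271 and 108 in the GPC6 libraries. GPC6 replicates 1, 3 and 4 lay below every 3xCR library, and GPC6 replicate 2 lay above 3xCR replicates 2 and 3. The lowest value stood on 42 reads (95% Poisson interval 46.8 to 87.7 normalized counts, which covers counting error only). The means were 640 ± 515 (SD, n = 3) and 220 ± 169 (SD, n = 4), with a log2 difference of -1.62 (SE 0.74, 95% interval -3.33 to 0.087). This 3.08-fold lower level in GPC6 tumors had an unadjusted p of 0.0600 and an adjusted p of 0.730 in limma, and p = 0.229 in the two-sided exact permutation test. GPC6 replicate 2 was the GPC6 library highest in Cdkn2b, so that leaving it out enlarges the fold, and its Gpc6 level was near that of 3xCR. Without this library the fold was 4.21 with an unadjusted p of 0.0205 and an adjusted p of 0.526 in limma. In that fit 9.45% of all genes had an unadjusted p under 0.05. The fold was 2.24 without GPC6 replicate 1 and 2.01 without 3xCR replicate 4. DESeq2 gave Cdkn2b an unadjusted p of 0.0420 and an adjusted p of 0.488, where 9.77% of all genes had an unadjusted p under 0.05. With library weights the log2 differences were -0.57 for Cdkn2b (unadjusted p = 0.159, limma) and -0.60 for Cdkn2a. In none of the fits did a member reach an adjusted p under 0.05.

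**Figure D2:**
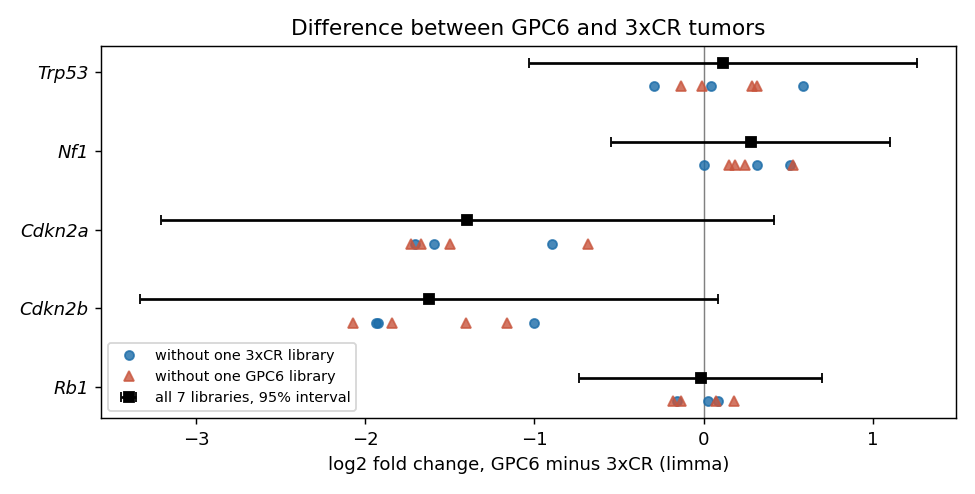
Log2 difference between GPC6 and 3xCR tumors for each of the 5 genes from limma, with squares and bars for the fit on all 7 libraries and its 95% interval, circles for fits without one 3xCR library and triangles for fits without one GPC6 library. Each of the 5 intervals includes 0; Cdkn2a and Cdkn2b stay below 0 in every fit shown (-1.73 to -0.68 and -2.07 to -1.01), while Trp53 and Rb1 fall on both sides of 0.

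Rb1 was the most even member. It had 479, 521 and 373 normalized counts in the 3xCR libraries, against 373, 571, 299 and 632 in the GPC6 libraries. The 3xCR values lay inside the range of the GPC6 values. The means were 458 ± 76.3 (SD, n = 3) and 469 ± 158 (SD, n = 4), and the log2 difference was -0.017 (SE 0.31, 95% interval -0.74 to 0.70; adjusted p = 0.989, limma). The sign of a value this near 0 turned under other scalings and fits, and the interval leaves room for a fold of 0.600 to 1.63. The gene lies on the minus strand of chromosome 14 from 73183673 to 73325822. It shares 488 exon bases with Rcbtb2 and 408 with Lpar6, both on the opposite strand, at 328 to 1113 and 43.3 to 173 normalized counts, so that part of its reads may be split or shared with these genes where strand was not used.

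The spread over the 7 libraries separated the members. The SD of log2 values was 1.38 for Cdkn2b, 1.37 for Cdkn2a, 0.70 for Trp53, 0.49 for Nf1 and 0.39 for Rb1, where the median gene had 0.52. Cdkn2a varied more than 90.4% of the genes tested and Cdkn2b more than 90.5%, whereas Rb1 varied more than 34.3%. The highest library exceeded the lowest by 23.5-fold for Cdkn2a and 19.0-fold for Cdkn2b, but by 2.31-fold for Nf1 and 2.11-fold for Rb1.

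To set levels of different genes side by side, normalized counts were divided by the exon length of the coding transcripts in kilobases. On this scale the median level over the 7 libraries was 1176 for Cdkn2a (150 to 3527), 245 for Cdkn2b (46.7 to 888), 198 for Trp53 (124 to 422), 103 for Rb1 (64.2 to 136) and 55.6 for Nf1 (29.4 to 68.0). Cdkn2a was above Cdkn2b in 7 of 7 libraries, by a median of 4.28-fold. Rb1 was above Nf1 in 7 of 7 libraries, by a median of 2.09-fold. Cdkn2b and Trp53 could not be ordered, since Cdkn2b was the higher in 4 of 7 libraries and the mean log2 difference of -0.20 was small beside its SD of 1.34. With lengths from all annotated transcripts Cdkn2b was the higher in 5 of 7, and the mean log2 difference turned to 0.91. Trp53 was above Rb1 in 7 of 7 libraries with lengths from coding transcripts and in 5 of 7 with lengths from all transcripts, where the median fold fell from 1.94 to 1.16. The level of Cdkn2a, counted without regard to length, was above that of 91.1% of the genes tested.

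Cdkn2a and Cdkn2b were highest in 1 library, 3xCR replicate 4, and lowest in another, GPC6 replicate 1. Their promoters, from RefSeq on GRCm38.p6, are shown for this reason, each with 250 bases before and 50 after the annotated start on the minus strand. Capitals mark matches on either strand to the GC box GGGCGG, which Sp1 binds, and to the cAMP response element TGACGTCA. Also searched were the E-box CACGTG and the E2F site letters TTTCGCGC and TTTGGCGC.
Cdkn2a, p19Arf start, chr4:89294570-89294869: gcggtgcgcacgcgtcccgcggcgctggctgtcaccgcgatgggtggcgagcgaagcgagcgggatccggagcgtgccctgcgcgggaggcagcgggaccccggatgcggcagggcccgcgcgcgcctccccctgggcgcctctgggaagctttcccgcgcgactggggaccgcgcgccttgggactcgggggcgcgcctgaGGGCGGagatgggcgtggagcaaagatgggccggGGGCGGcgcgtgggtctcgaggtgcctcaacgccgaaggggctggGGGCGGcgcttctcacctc
Cdkn2a, p16Ink4a start, chr4:89282143-89282442: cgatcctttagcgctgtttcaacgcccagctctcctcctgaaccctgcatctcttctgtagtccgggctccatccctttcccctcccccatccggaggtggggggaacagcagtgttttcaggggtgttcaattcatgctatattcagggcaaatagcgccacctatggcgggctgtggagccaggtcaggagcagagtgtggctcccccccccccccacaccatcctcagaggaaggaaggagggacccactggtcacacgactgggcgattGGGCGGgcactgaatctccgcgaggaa
Cdkn2b, chr4:89310983-89311282: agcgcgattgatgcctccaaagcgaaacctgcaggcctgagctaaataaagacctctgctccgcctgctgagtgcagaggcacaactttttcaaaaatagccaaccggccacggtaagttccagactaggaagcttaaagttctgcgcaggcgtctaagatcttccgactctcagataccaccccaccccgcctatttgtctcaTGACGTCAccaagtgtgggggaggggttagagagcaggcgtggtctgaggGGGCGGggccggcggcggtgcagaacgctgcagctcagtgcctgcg
The p19Arf window held 3 GC boxes, and the p16Ink4a and Cdkn2b windows held 1 each. A GC box occurs in 35.7% of the 32851 promoters of the same length. The cAMP response element lies in the Cdkn2b window and in 1.79% of all promoters. Neither the E-box, found in 7.15% of promoters, nor the E2F letters, found in 0.813%, occur in these 3 windows, which says only that these letters are not there. Other forms of an E2F site were not searched, and the 0.813% is for the searched letters only. The GC content was 77.0% in the p19Arf window, 60.3% in the p16Ink4a window and 57.7% in the Cdkn2b window. The gene bodies lie 11645 bases apart.

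Across the 7 libraries the log2 levels of Cdkn2a and Cdkn2b had a Pearson r of 0.86 (exact permutation p = 0.0119, adjusted p = 0.119 over the 20 relations computed) and a Spearman rho of 0.857 (exact permutation p = 0.0238, adjusted p = 0.228). The relation rested on the libraries at both ends, as r was 0.21 over the 5 libraries left without GPC6 replicate 1 and 3xCR replicate 4. Within a library the log2 difference Cdkn2a minus Cdkn2b, which carries no size factor, was 1.97 ± 0.22 (SD, n = 3) in the 3xCR group. It was 2.19 ± 1.00 (SD, n = 4) in GPC6 tumors, and the two-sided exact permutation test gave p = 1.0. GPC6 replicate 4 stood apart with 3.66, where the other 6 libraries lay between 1.43 and 2.19.

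**Figure D3:**
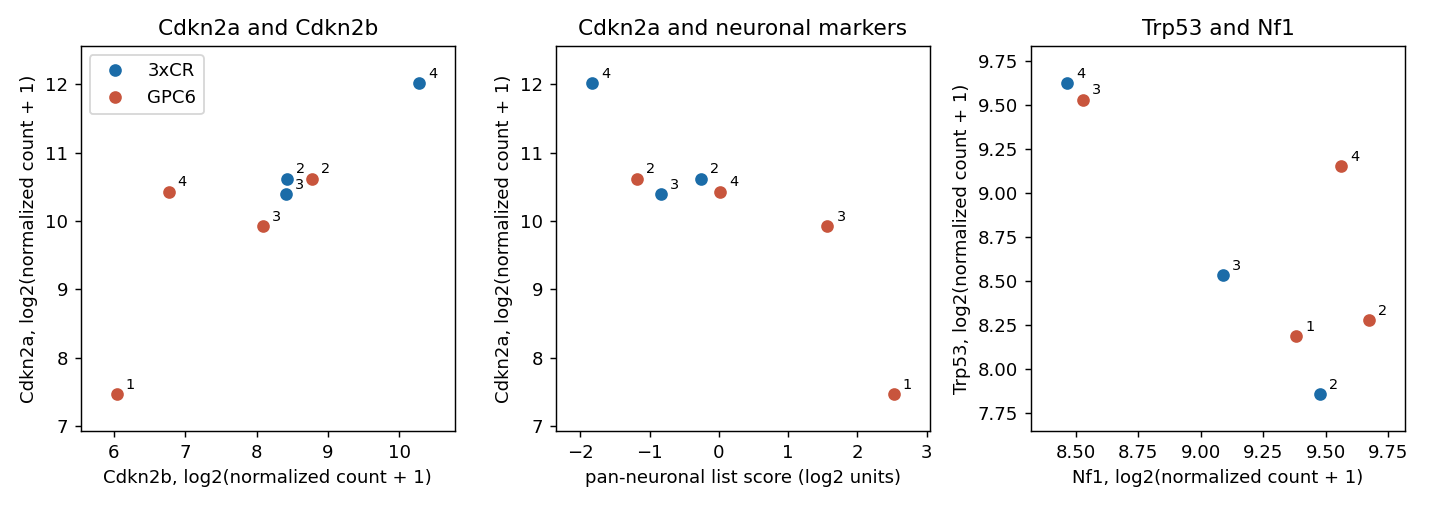
Each point is a library (blue, 3xCR; red, GPC6; numbers are replicates). Left, Cdkn2a against Cdkn2b; middle, Cdkn2a against the mean log2 level of 10 pan-neuronal markers, centered over the libraries; right, Trp53 against Nf1; gene axes are log2(normalized count + 1). The correlation of Cdkn2a is 0.86 with Cdkn2b and -0.90 with the neuronal score, with GPC6 replicate 1 and 3xCR replicate 4 at the ends.

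The libraries highest in Trp53, one targeted gene, were lowest in Nf1, the other. Trp53 and Nf1 had an r of -0.76 (exact permutation p = 0.0782, adjusted p = 0.313) and a rho of -0.607 (exact permutation p = 0.167, adjusted p = 0.556). The r was 0.021 over 5 libraries without 3xCR replicate 4 and GPC6 replicate 3. The log2 difference Trp53 minus Nf1 was -1.62, -0.55 and 1.16 in the 3xCR libraries and -1.19, -1.40, 1.00 and -0.41 in the GPC6 libraries. Thus 3xCR replicate 4 and GPC6 replicate 3 were the libraries with more Trp53 than Nf1 reads per size factor. The group means differed by -0.16 (two-sided exact permutation p = 0.971).

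Nf1 and Rb1 had an r of 0.77 (exact permutation p = 0.0563, adjusted p = 0.282) and a rho of 0.714 (exact permutation p = 0.0881, adjusted p = 0.352). This r was 0.34 without 3xCR replicate 4 and GPC6 replicate 3. Cdkn2a and Rb1, members that act on the same cyclin D kinase step, had an r of 0.23 (exact permutation p = 0.660, adjusted p = 0.825) and a rho of 0.357 (exact permutation p = 0.444, adjusted p = 0.978). Without GPC6 replicate 1 and 3xCR replicate 4 that r was 0.82. The log2 difference Cdkn2a minus Rb1 was 2.18 ± 1.13 (SD, n = 3) in the 3xCR group, against 0.80 ± 1.27 (SD, n = 4) in the GPC6 group, with p = 0.229 in the two-sided exact permutation test and an adjusted p of 0.686 over 3 such differences. In GPC6 replicate 1 it was -1.08, the library where Cdkn2a was below Rb1. Of the 20 relations, 0 had an adjusted p under 0.05 for either coefficient, and 3 had an unadjusted p under 0.05 for r.

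Markers of other cells differed between the libraries at the ends of the Cdkn2 range. The summed level of 10 pan-neuronal markers was 5292 to 9415 normalized counts in 3xCR libraries and 6713 to 60147 in GPC6 libraries, where GPC6 replicates 1 and 3 held 60147 and 29782. Cdkn2a had an r of -0.90 with the score of this list (exact permutation p = 0.00317, adjusted p = 0.0635) and a rho of -0.821 (exact permutation p = 0.0341, adjusted p = 0.228), and the r was -0.87 without GPC6 replicate 1 and 3xCR replicate 4. Cdkn2b had an r of -0.81 (exact permutation p = 0.0349, adjusted p = 0.233) and a rho of -0.929 (exact permutation p = 0.00675, adjusted p = 0.135), with an r of -0.36 without the same libraries. The part of neuronal RNA in the difference between the groups was not tested. In bulk tissue, fewer cells of a type and less RNA per cell cannot be told apart.

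The 12 markers of dividing cells summed to 7520 to 15629 normalized counts in 3xCR libraries and 1315 to 18307 in GPC6 libraries, with the lowest value in GPC6 replicate 1, the library lowest in both Cdkn2 genes. Cdkn2a had an r of 0.80 with the proliferating score (exact permutation p = 0.195, adjusted p = 0.627) and a rho of 0.036 (exact permutation p = 0.963, adjusted p = 1.0), and the r was -0.28 without GPC6 replicate 1. T cell markers, of which 5 of 6 were in the table, summed to 248 to 1004 in 3xCR libraries and 78.8 to 273 in GPC6 libraries, with 1004 in 3xCR replicate 4, the library highest in both Cdkn2 genes. Microglia markers summed to 22305 to 39241 in 3xCR libraries and 12283 to 19372 in GPC6 libraries, without overlap. Oligodendrocyte markers ranged from 66269 to 83598 and from 15756 to 113612, astrocyte markers from 11605 to 46419 and from 18475 to 48249, and endothelial markers from 751 to 1833 and from 1213 to 1957, each overlapping between the groups. The part of these cells in the Cdkn2 levels was not tested.

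The genes that act with the members gave no call at an adjusted p under 0.05. A list held the D cyclins Ccnd1, Ccnd2 and Ccnd3 and the kinase genes Cdk4 and Cdk6, on whose products p16Ink4a and p15Ink4b act. All 5 fitted values were below 0 with a median log2 difference of -0.75, beside -0.019 over all genes. This median was the value of Cdk6, which had 4.64 to 44.2 normalized counts, the lowest equal to 3 reads in GPC6 replicate 1. Cdk4 had -0.46 (adjusted p = 0.842, limma). With a pseudocount of 5 the list median was -0.62. It was -0.29 without GPC6 replicate 1 and -1.19 without 3xCR replicate 2. Ccnd2 had 3652, 2770 and 4029 normalized counts in the 3xCR libraries, against 804, 3534, 1360 and 1183 in the GPC6 libraries. GPC6 replicates 1, 3 and 4 lay below the 3xCR range and GPC6 replicate 2 inside it. Its log2 difference was -1.23 (SE 0.47) with an unadjusted p of 0.0312 and an adjusted p of 0.730 in limma. Ccnd2 was the 1 gene of the 5 in its list under 0.05 before adjustment, beside 4.66% of all genes. Ccnd1, the most abundant of them, had 9822 ± 1656 (SD, n = 3) and 5967 ± 4326 (SD, n = 4), a difference of -1.08, and Ccnd3 had -0.36. Among 5 other CDK inhibitors, 4 had values below 0 and the range was from -0.95 for Cdkn2c, which encodes p18Ink4c, to 0.12 for Cdkn1a, which encodes p21 and is a target of p53. Of 12 genes of the RB family and E2F, 8 were below 0 with a median of -0.28, from -0.86 for E2f2 to 0.45 for Tfdp2, a partner of E2F. The most abundant of them, Tfdp1, another partner, had -0.41. Leaving out GPC6 replicate 1 gave a median of 0.058, and leaving out GPC6 replicate 4 gave -0.45.

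**Figure D4:**
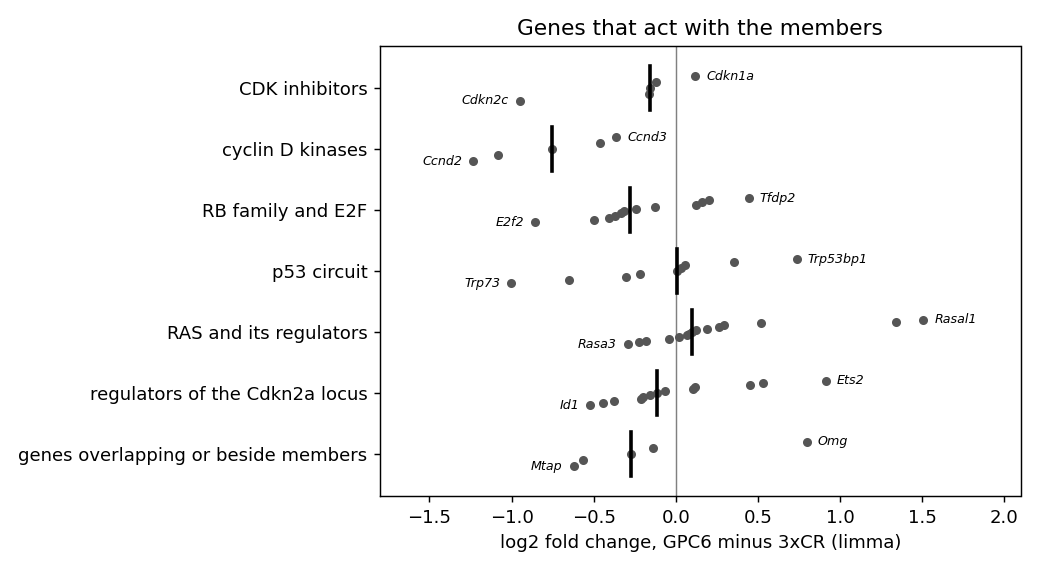
Log2 difference between GPC6 and 3xCR tumors from limma for the tested genes of 7 lists around the 5 tumor suppressors; points are genes, vertical bars are list medians, and the genes at each end are named. The list labeled cyclin D kinases (Ccnd1, Ccnd2, Ccnd3, Cdk4 and Cdk6) has the lowest median (-0.75), the value of Cdk6, a gene of low counts. The RAS list has the highest (0.097), and 0 genes of any list had an adjusted p under 0.05.

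In the p53 circuit 5 of 9 tested genes had values above 0 and the median was 0.0063, against -0.14 when GPC6 replicate 4 was left out and 0.16 when GPC6 replicate 1 was. Npm1, the most abundant of them, encodes nucleophosmin, which binds p19Arf in the nucleolus, and had 7635 ± 2635 (SD, n = 3) and 5856 ± 4750 (SD, n = 4), with a log2 difference of -0.65 (adjusted p = 0.763, limma). Trp53bp1, which encodes a protein that marks DNA breaks and binds p53, had 496, 472 and 341 normalized counts in the 3xCR libraries, against 810, 659, 640 and 778 in the GPC6 libraries. The groups did not overlap, and the log2 difference of 0.74 (SE 0.22) had an unadjusted p of 0.00959 and an adjusted p of 0.730 in limma. Usp7, a deubiquitinase of MDM2 and p53, also did not overlap between the groups, with 1105 ± 138 (SD, n = 3) and 1411 ± 151 (SD, n = 4) and a difference of 0.35 (adjusted p = 0.730, limma). Thus 2 of the 9 tested genes did not overlap, beside 6.32% of all genes tested. An unadjusted p under 0.05 in limma was found for 1 of the 9, beside 4.66% of all genes. The range ran down to -1.003 for Trp73, a relative of p53 with 0 to 34.0 normalized counts. Mdm2, the ligase that p19Arf holds back, was singled out after its values were seen. It had 543, 571 and 533 normalized counts in the 3xCR libraries, against 490 to 584 in GPC6, with a log2 difference of 0.0063 (SE 0.18, adjusted p = 0.993, limma). The relation of Mdm2 with Trp53 was not tested.

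Of 15 genes of RAS and its regulators, the circuit of Nf1, 11 were above 0 with a median of 0.097, which was 0.21 without GPC6 replicate 4, 0.15 without GPC6 replicate 2 and 0.029 with library weights. Rasal1, another RAS GTPase-activating protein, had the highest value, 1.51 (SE 1.01; adjusted p = 0.731, limma), with 830 and 410 normalized counts in GPC6 replicates 1 and 3 and 41.5 to 87.2 in the other 5 libraries. Those 2 libraries also held the highest neuronal marker sums, and the part of neurons in the value was not tested. The most abundant of the list was Rasa3, with -0.29.

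Of 13 regulators of the Cdkn2a locus, 8 were below 0 and the median was -0.11. Leaving out GPC6 replicate 3 turned this median to 0.011, and leaving out GPC6 replicate 1 gave -0.025. Ets2, an activator of p16Ink4a, had 302, 243 and 258 normalized counts in the 3xCR libraries, against 1014, 360, 552 and 317 in the GPC6 libraries. All 4 GPC6 values were above the 3xCR values, with a log2 difference of 0.91 (SE 0.40, adjusted p = 0.730, limma). The libraries highest in Ets2, GPC6 replicates 1 and 3, also held the highest neuronal marker sums, and the part of neurons in the value was not tested. Id1, which counters ETS factors at the p16Ink4a promoter, was lower without overlap, with 358 ± 17.2 (SD, n = 3) and 258 ± 76.8 (SD, n = 4) and a log2 difference of -0.52 (adjusted p = 0.730, limma). Over the 7 libraries the Pearson r with Cdkn2a was -0.90 for Ets2 and 0.40 for Id1. Among genes of other lists it was 0.93 for E2f2, 0.92 for Ccnd1, -0.85 for Usp7 and -0.84 for Tfdp2. These values were not tested and are outside the 20 relations above. Ets2 and Id1 were the 2 of 13 genes without overlap between the groups, beside 6.32% of all genes tested. Bmi1, the Polycomb protein known for silencing the locus, had -0.16. A list of 7 genes that overlap or flank the members had 5 in the table, from -0.62 for Mtap, which lies beside the Cdkn2 genes, to 0.80 for Omg. Rcbtb2 and AU040972, which also overlap members, were not in this list.

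The genes whose log2 levels followed each member most closely over the 7 libraries were taken by Pearson r, as a description. For Cdkn2a they were Gm14005 (r = 0.992), Rtcb (0.990) and Rac2 (0.990), and for Cdkn2b they were Selk (0.992), Hmga2 (0.988) and 1810055G02Rik (0.987). For Rb1 they were Asb7 (0.996), Eci2 (0.986) and Vwc2 (0.983), for Nf1 they were Ube2v2 (0.986), Nbr1 (0.984) and Zfp770 (0.975), and for Trp53 they were Sirt6 (0.975), Adamts8 (0.951) and Slc2a6 (0.949). The number of genes with an r above 0.9 was 620 for Cdkn2a and 218 for Cdkn2b, but 80 for Rb1, 54 for Nf1 and 25 for Trp53. The 7 libraries share their depth and tissue makeup across all genes, and a likeness over 7 values names no shared function.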

How the data were processed

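Bulk RNA-Seq libraries from poly(A)-selected, stranded preparations of tumor tissue collected under a fluorescence microscope were used, 3 of 3xCR and 4 of GPC6 tumors, with groups and replicate numbers from the labels. Per the submitters' processing notes and the methods, the authors aligned reads to mm10 with STAR 2.5.0a, counted them per gene and normalized them with DESeq2 1.20.0. The deposited values are a normalized signal, that is, counts over the size factor of each library (0.647 to 1.82), a scaling that takes most genes as unchanged. Of 19282 entries, 25 named as dates were left out. Whole reads were recovered for 100% of values (within 0.01), and edgeR called 0 genes on them at an adjusted p under 0.05, with 991 at an unadjusted p under 0.05. A count of 0 allowed 1.64 to 4.64 normalized counts (3 reads).

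The test was limma 3.58.1 in R 4.3.3, applied with a variance trend to log2(normalized count + 1) of the 14782 genes whose mean reached 10, two-sided, with Benjamini-Hochberg adjustment over all of them. Fold changes are on that scale. Single values were compared by exact permutation over the 35 splits, and correlations over the 5040 pairings, in Python 3.11.15. SciPy 1.17.1 gave the ranks and the Poisson intervals. Alternatives were edgeR 4.0.16, DESeq2 1.42.0 and limma voom on recovered reads, pseudocounts of 0.5 and 5, no filter or a mean of 50, other scalings, no trend, library weights, a replicate block and each library left out. The fits were tested on simulated counts, drawn independently for each library with the same dispersion for all genes. Those counts lack the tissue differences between these tumors, so that they do not show how the fits behave here. The members, lists and rules were chosen with earlier results of these data known. The text names the members, Gpc6, the genes that overlap members, the 3 genes most like each member and, from each list, the genes of highest mean, largest and smallest difference, any without overlap between groups or with an unadjusted p under 0.05. Mdm2 was added after its values were seen. Coordinates are from GENCODE on GRCm38, and 96.0% of the symbols matched. Promoters matched 4 of the 5 members in RefSeq.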

Additional observations from a re-analysis of the deposited data

Results flagged for a closer look

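E2f2, an E2F transcription factor that RB1 binds, had 37.1 normalized counts in GPC6 replicate 1, where the other 3 GPC6 libraries had 157 to 210. The gap to the nearest library took 0.832 of the group's range on the log2 scale, above Dixon's 95% critical value for 4 libraries. It was the 1 value singled out among 41 quantities examined in the GPC6 group, of which chance alone would give 2.05, about 1 in 20.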

How the results depend on the processing

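Over all 20 settings, 0 members had an adjusted p under 0.05. The fitted differences of Cdkn2a and Cdkn2b kept their direction under every alternative. Rb1 turned to 0.029 with equal totals, 0.021 in edgeR, 0.042 in DESeq2 and 0.071 with the replicate block, and Nf1 turned to -0.34 with library weights. With these weights Trp53 was at 0.79 and Rb1 at -0.59 (limma adjusted p of 0.0905 and 0.0786), and Cdkn2a and Cdkn2b were at -0.60 and -0.57. Genes at an adjusted p under 0.05 numbered 1962 with library weights and 4 in DESeq2 (0 in limma), and the median of the genes overlapping or beside members was -0.63 with library weights. The cause was not tested.

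Leaving out each library in turn moved the log2 difference from -0.29 to 0.59 for Trp53, from 0.0044 to 0.53 for Nf1, from -1.73 to -0.68 for Cdkn2a, from -2.07 to -1.01 for Cdkn2b and from -0.18 to 0.18 for Rb1. It moved r from -0.12 to 0.49 for Trp53 with Cdkn2b, from -0.45 to 0.082 for Nf1 with Cdkn2a, from -0.086 to 0.53 for Cdkn2a with Rb1 and from -0.44 to 0.18 for Cdkn2b with Rb1. With the proliferating score r ran from -0.27 to 0.25 for Nf1, from -0.28 to 0.93 for Cdkn2a and from -0.56 to 0.78 for Cdkn2b. With the pan-neuronal score it ran from -0.45 to 0.23 for Trp53 and from -0.42 to 0.42 for Nf1. Differences within a library ran from -0.26 to 0.48 for Cdkn2a minus Cdkn2b and from -0.80 to 0.58 for Trp53 minus Nf1. List medians ran from -0.23 to -0.11 for CDK inhibitors, from -0.12 to 0.011 for regulators of the Cdkn2a locus and from -0.47 to -0.059 for genes overlapping or beside members.

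Libraries with the same replicate number did not deviate together (correlations of -0.19 to 0.30, and 1 of 3 correlated best with its own number). With the replicate block the log2 differences were -0.68 for Cdkn2a, -1.16 for Cdkn2b, 0.31 for Trp53, 0.25 for Nf1 and 0.071 for Rb1, with 0 genes at an adjusted p under 0.05. GPC6 replicate 1 has no partner of its number and does not bear on these values. The smallest library held 7197692 reads, and a member's lowest count was 42 reads.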
